A study of Homo sapiens with 4 samples.

Results

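The genes described here are 34 human genes for endoplasmic reticulum (ER) chaperones and for the stress response of that organelle, taken as the rows whose gene symbol equals a name on the list. All 34 were found among the 17791 genes of the table, and each had at least 1 CPM (counts per 1000000 counts) in every library. The libraries came from engineered prostate cancer tissues, human cancer cells grown inside a poly(ethylene glycol)-fibrinogen hydrogel and collected at day 15 without drug treatment. There were 4 groups of 1 library: LNCaP cells cocultured with BJ-5ta fibroblasts, LNCaP cells alone, PC-3 cells cocultured with BJ-5ta fibroblasts, and PC-3 cells alone. LNCaP and PC-3 are prostate cancer lines, which the submitters label androgen-dependent (ADPC) and castration-resistant (CRPC-ne, with the suffix not explained), and BJ-5ta cells are normal human fibroblasts made immortal. The cocultures were seeded at 5 cancer cells to 1 fibroblast. Each group thus models its cell type by 1 line, the labels give the growth of PC-3 tissues and leave the medium of the LNCaP tissues unknown, and RNA came from several tissues without a statement on pooling. With no replicates, each difference below compares 2 libraries and not 2 conditions, no test was possible, and every interval is a 95% interval for counting error only.

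Secreted and membrane proteins enter the ER through the SEC61 channel and are folded there by HSP70 and HSP90 family chaperones, by the lectins calnexin and calreticulin and by protein disulfide isomerases. When unfolded protein builds up, the sensors PERK (gene EIF2AK3), IRE1 (ERN1) and ATF6 start the unfolded protein response: PERK slows translation and favours ATF4, IRE1 splices the XBP1 message, and ATF6 is cut to release a transcription factor. ATF6 and spliced XBP1 are known to act on chaperone and degradation genes, while ATF4 acts on amino acid supply genes and on DDIT3, which encodes the pro-apoptotic factor CHOP. Prostate epithelium is a secretory tissue, and androgen-responsive prostate cancer cells secrete large amounts of kallikreins.

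Total counts were 15520243 in LNCaP coculture, 15860981 in LNCaP monoculture, 15687894 in PC-3 coculture and 15865690 in PC-3 monoculture. KLK3, which encodes prostate-specific antigen and marks LNCaP cells, was at 4779 CPM in LNCaP coculture and 3814 CPM in LNCaP monoculture, and at 0 in either PC-3 library. CAV1, caveolin 1, was listed as a PC-3 marker. It was at 19.1 CPM in LNCaP coculture, 0 in LNCaP monoculture, 72.0 CPM in PC-3 coculture and 65.6 CPM in PC-3 monoculture. Of the other listed PC-3 markers, CD44 and ANXA1 were likewise higher in either coculture than in its monoculture. VIM was at 338 CPM in LNCaP coculture, 98.7 CPM in LNCaP monoculture, 663 CPM in PC-3 coculture and 806 CPM in PC-3 monoculture. In the same order S100A2 was at 0, 0.380, 76.7 and 106 CPM, and AKR1C3 at 3.03, 2.85, 15.6 and 17.4 CPM. The 16 fibroblast markers summed to 957 CPM in LNCaP coculture and 9.18 CPM in LNCaP monoculture, with 15 and 2 of them at 1 CPM or more. They summed to 706 CPM in PC-3 coculture and 203 CPM in PC-3 monoculture, with 15 and 5 of them at 1 CPM or more. At 0 were POSTN in LNCaP coculture, COL1A2, DCN, LUM, MMP2, POSTN, FAP, PDGFRA and TWIST2 in LNCaP monoculture, none in PC-3 coculture, and THY1, MMP2, TIMP3 and POSTN in PC-3 monoculture. The summed fibroblast markers were higher in either coculture than in its monoculture, the direction of most coculture folds that follow. Between the monocultures they were lower in LNCaP than in PC-3. The summed level of the 34 genes was 1.055-fold (1.047 to 1.063) higher in LNCaP monoculture than in PC-3 monoculture. Fewer cells of a type cannot be told apart from less RNA per cell in such bulk tissue. The part of fibroblast RNA in the results was not tested.

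CALR, HSP90B1, P4HB and HSPA5 were the 4 highest of the 34 genes in every library, and the sensors were far below them. Per kilobase of transcript, the scale on which genes can be compared, CALR was the highest of the 34 genes in all 4 libraries. It reached 740.0 CPM per kilobase in LNCaP coculture, 640.2 in LNCaP monoculture, 542 in PC-3 coculture and 488 in PC-3 monoculture. In either LNCaP library HSP90B1, P4HB and HSPA5 came next in that order, and in either PC-3 library P4HB, HSP90B1 and HSPA5. The sensor ERN1 lay near the other end, at 8.10 CPM per kilobase in LNCaP coculture, 6.90 in LNCaP monoculture, 7.71 in PC-3 coculture and 7.53 in PC-3 monoculture. The lowest gene was ERN1 in LNCaP coculture, PPP1R15A in LNCaP monoculture and DERL2 in either PC-3 library.

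**Figure D1:**
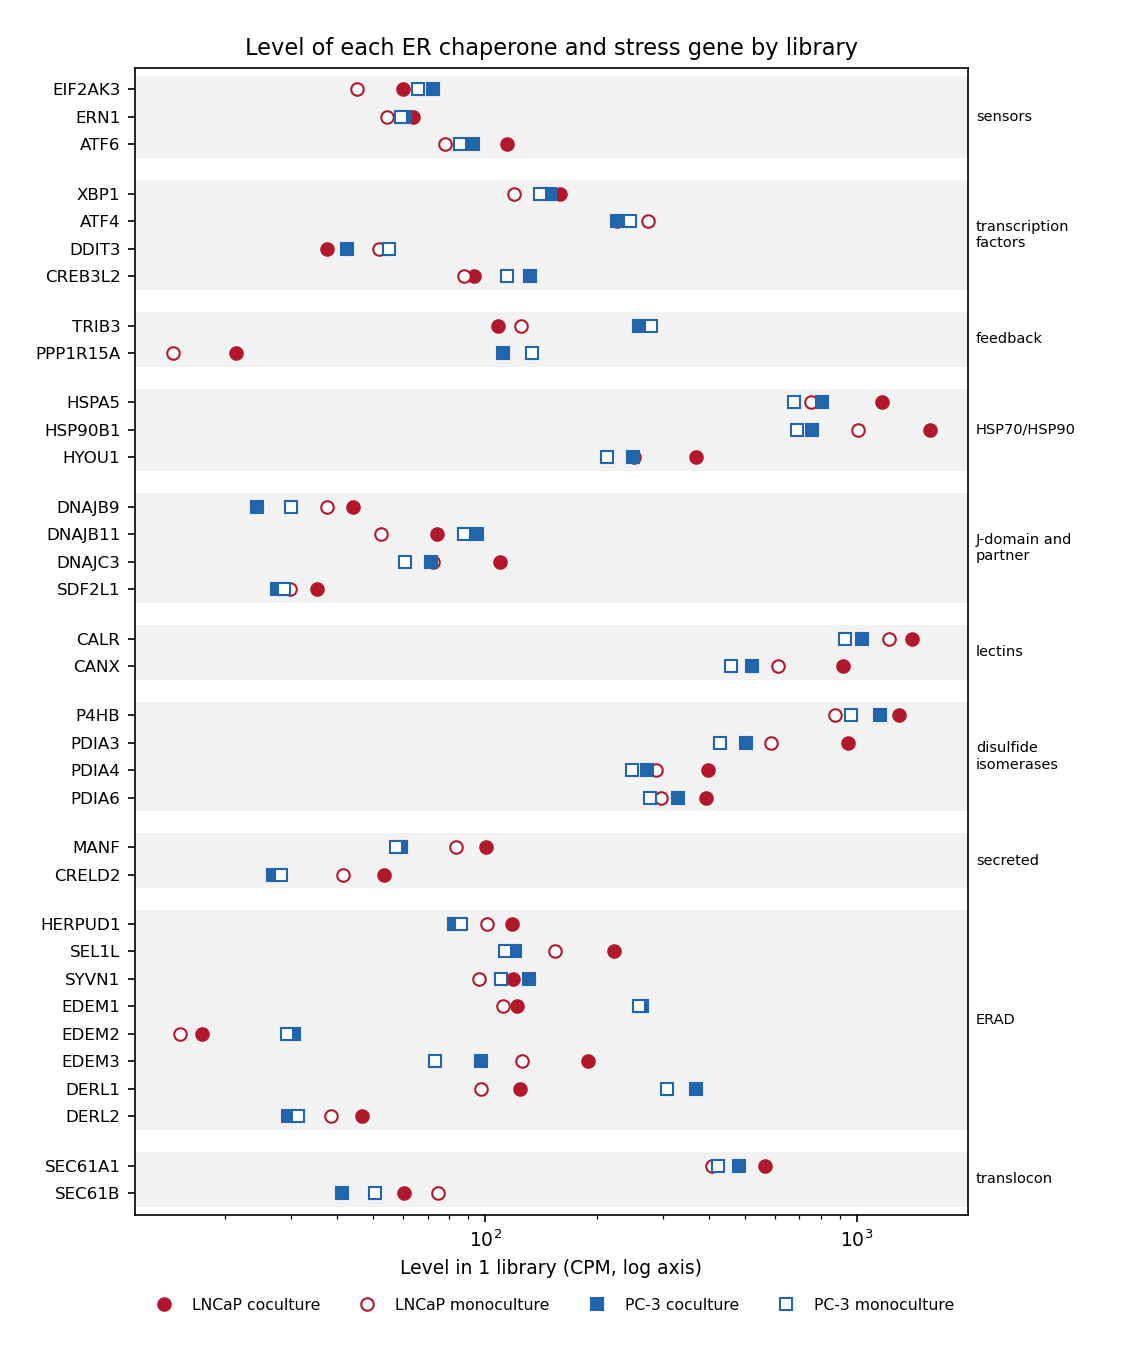
Level of each gene in each library, in CPM on a log axis, with genes grouped by role and 1 point per library. Filled red circles (LNCaP coculture) lie farthest right for the chaperones, lectins and disulfide isomerases other than DNAJB11. Both PC-3 squares lie to the right of both LNCaP circles for EIF2AK3, CREB3L2, TRIB3, PPP1R15A, DNAJB11, EDEM1, EDEM2 and DERL1.

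Together the 34 genes took 1.13% of all counts in LNCaP coculture (exact binomial interval 1.13% to 1.14%) and 0.823% in LNCaP monoculture (0.819% to 0.828%). They took 0.871% in PC-3 coculture (0.866% to 0.875%) and 0.788% in PC-3 monoculture (0.784% to 0.793%). The LNCaP coculture thus stood above the other 3 libraries, which lay close together. The 13 chaperones and folding enzymes of the ER lumen and membrane held the larger part of these counts. They took 0.872% of counts in LNCaP coculture, 0.605% in LNCaP monoculture, 0.583% in PC-3 coculture and 0.512% in PC-3 monoculture. The 6 stress transcription factors and feedback regulators did not follow them, with 0.0645% in LNCaP coculture, 0.0669% in LNCaP monoculture, 0.0921% in PC-3 coculture and 0.0973% in PC-3 monoculture.

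The LNCaP coculture was set against the LNCaP monoculture to see which of these genes differ when fibroblasts are in the tissue. Most were moderately higher in the coculture: 30 of 34 had a log2 fold above 0, and for 28 the interval of the fold lay wholly above 1, with 4 wholly below and 2 spanning it. Of all genes at 1 CPM or more, the interval lay above 1 for 27.8% and below it for 25.8%. The median log2 fold was 0.38, beside 0.00033 over the 14119 genes at 1 CPM or more in at least 1 of the 2 libraries, of which 50.1% were above 0. HSPA5, HSP90B1, PDIA3, DNAJC3 and EDEM3 were at least 1.5-fold higher, 5 of 34 genes, where 7.88% of all genes were that much higher. With DESeq2 size factors in place of TMM factors the count was 10 of 34, where 8.55% of all genes were that much higher. None of the 34 was at least 1.5-fold lower, where 8.95% of all genes were, and none was at least 2-fold higher or lower, where 4.56% and 3.03% of all genes were. Among genes at 20 CPM or more in both libraries, a level chosen after seeing the data, the same count was 5 of 32 genes beside 1.91% of all genes, and 28 of the 32 were above 0 beside 53.5% of all genes. At that level the interval lay above 1 for 27 of 32 genes, beside 33.5% of all genes. The summed level of all 34 genes was 1.37-fold higher in the coculture (1.36 to 1.38), and that of the 13 chaperones and folding enzymes 1.44-fold higher (1.43 to 1.45). The fibroblast marker COL1A2 was at 231 CPM in this coculture and 0 in LNCaP monoculture, and the part of fibroblast RNA in these folds was not tested.

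In PC-3 tissues the same contrast gave smaller differences. Of the 34 genes, 24 had a log2 fold above 0, where 50.8% of the 14417 genes at 1 CPM or more did, and the median was 0.12, beside 0.0043 over all genes. None was at least 1.5-fold higher or lower, where 4.65% of all genes were that much higher and 3.86% that much lower. The interval lay above 1 for 19 genes, below it for 6 and across it for 9, beside 21.5% above and 20.4% below over all genes. All 34 genes were at 20 CPM or more in both PC-3 libraries, a level at which the interval lay above 1 for 26.0% of all genes. The summed level was 1.11-fold higher in PC-3 coculture (1.10 to 1.12), and that of the 13 chaperones and folding enzymes 1.15-fold higher (1.14 to 1.16). Subtracting the log2 folds, LNCaP minus PC-3, gave a value above 0 for 29 of 34 genes, where 52.0% of all genes had one, with a median of 0.30 beside 0.021 over all genes. The counting interval of this difference lay above 0 for 25 genes, including all 13 chaperones and folding enzymes, and below 0 for ATF4 only, beside 20.9% above and 18.2% below over all genes. Among genes at 20 CPM or more in every library it lay above 0 for 24 of 32, beside 30.2% of all genes. None of the 34 had a difference of at least 1.5-fold in the other direction, where 12.3% of all genes did.

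**Figure D2:**
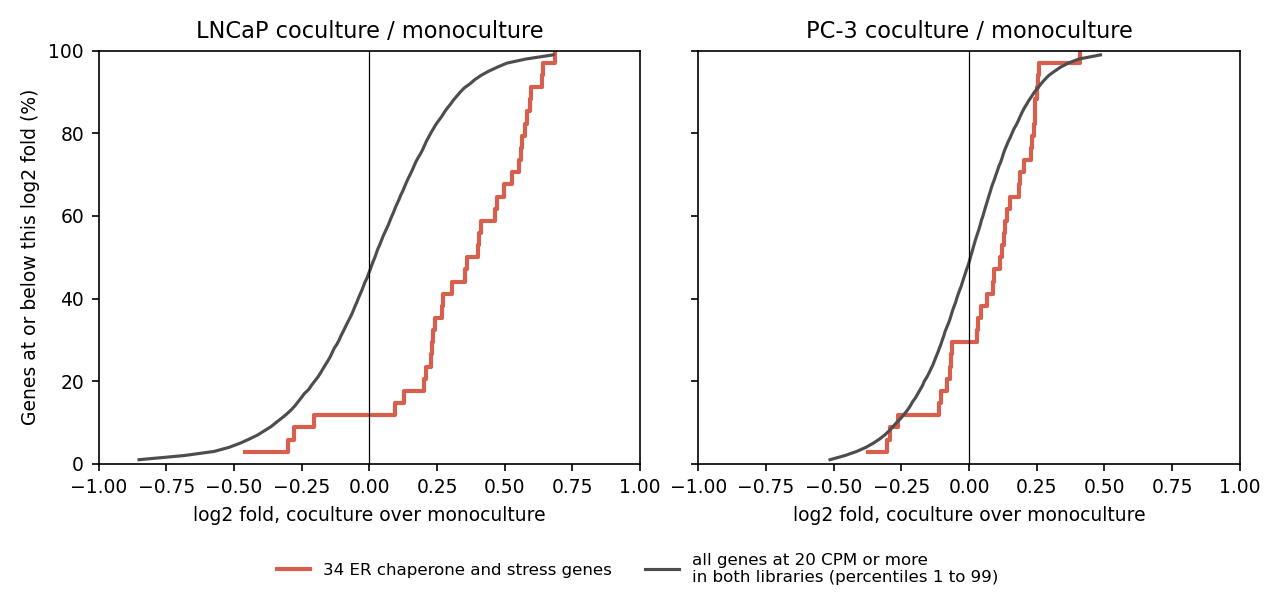
Cumulative share of genes (percent, vertical axis) at or below each log2 fold of coculture over monoculture (horizontal axis), for LNCaP on the left and PC-3 on the right. In LNCaP the red steps (34 ER genes, median 0.38) lie well to the right of the grey line (all genes at 20 CPM or more in both libraries), and in PC-3 (median 0.12) they lie closer to it.

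All 3 sensors were higher in LNCaP coculture, by less than 1.5-fold. ATF6, which is both sensor and precursor of a transcription factor, was at 115 CPM in LNCaP coculture and 78.1 CPM in LNCaP monoculture, 1.47-fold (1.36 to 1.58) higher, and at 92.9 CPM in PC-3 coculture and 85.4 CPM in PC-3 monoculture, 1.09-fold (1.01 to 1.17) higher. EIF2AK3 was at 60.0 CPM in LNCaP coculture and 45.2 CPM in LNCaP monoculture, 1.33-fold (1.20 to 1.46) higher, and at 72.2 CPM in PC-3 coculture and 66.1 CPM in PC-3 monoculture, 1.09-fold (1.00 to 1.19) higher. The kinase and nuclease gene ERN1 was the most even of the 3, at 63.8 CPM in LNCaP coculture, 54.3 CPM in LNCaP monoculture, 60.7 CPM in PC-3 coculture and 59.3 CPM in PC-3 monoculture. Its fold was 1.17 (1.07 to 1.29) in LNCaP and 1.02 (0.934 to 1.12) in PC-3, and the PC-3 interval spans 1. Of the exon bases of EIF2AK3, 15.1% also belong to other annotated genes, whose reads cannot be separated in libraries made with a kit that does not mark strand.

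Of the transcription factors, XBP1 was higher in either coculture and ATF4 and DDIT3 were lower in either. XBP1, the target of IRE1, was at 159 CPM in LNCaP coculture and 119 CPM in LNCaP monoculture, 1.33-fold (1.25 to 1.41) higher, and at 149.6 CPM in PC-3 coculture and 141 CPM in PC-3 monoculture, 1.06-fold (1.00 to 1.13) higher. Counts per gene cannot show how much of its message was spliced. On the PERK side both values were lower with fibroblasts in the tissue. ATF4 was at 226 CPM in LNCaP coculture and 275 CPM in LNCaP monoculture, a fold of 0.824 (0.788 to 0.862), and at 227 CPM in PC-3 coculture and 245 CPM in PC-3 monoculture, a fold of 0.926 (0.885 to 0.970). DDIT3 was at 37.6 CPM in LNCaP coculture and 51.7 CPM in LNCaP monoculture, a fold of 0.726 (0.652 to 0.809), and at 42.6 CPM in PC-3 coculture and 55.1 CPM in PC-3 monoculture, a fold of 0.772 (0.697 to 0.855). For either gene both intervals lay below 1. DDIT3 shares 39.6% of its exon bases with other annotated genes, mainly MARS on the opposite strand, and after a correction for transcript length and GC content its log2 fold was -0.24 in LNCaP and -0.15 in PC-3, against -0.46 and -0.37 without it. CREB3L2, a membrane-bound transcription factor of secretory cells, was at 93.3 CPM in LNCaP coculture, 87.5 CPM in LNCaP monoculture, 132 CPM in PC-3 coculture and 115 CPM in PC-3 monoculture. It was 1.15-fold (1.08 to 1.23) higher in PC-3 coculture, and its interval in LNCaP, 0.990 to 1.15, spans 1.

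The feedback regulators showed the widest gap between the lines. PPP1R15A encodes GADD34, which brings a phosphatase to eIF2alpha and so restores translation after PERK has acted. It was at 21.4 CPM in LNCaP coculture and 14.4 CPM in LNCaP monoculture, 1.48-fold (1.25 to 1.76) higher, and at 111 CPM in PC-3 coculture and 134 CPM in PC-3 monoculture, a fold of 0.834 (0.783 to 0.889). It was the only gene of the 34 whose coculture folds in the 2 lines differed by at least 1.5-fold, with a difference in log2 fold of 0.82 (0.57 to 1.08), where 11.2% of all genes had a difference that high. Among genes at 20 CPM or more in every library none of the 34 reached it, beside 1.82% of all genes. TRIB3, a pseudokinase induced by ATF4 and CHOP that damps their activity, was at 108 CPM in LNCaP coculture and 125 CPM in LNCaP monoculture, a fold of 0.868 (0.812 to 0.926), and at 259.5 CPM in PC-3 coculture and 279 CPM in PC-3 monoculture, a fold of 0.931 (0.892 to 0.972). TRIB3 was therefore slightly lower in either coculture, as ATF4 and DDIT3 were.

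**Figure D3:**
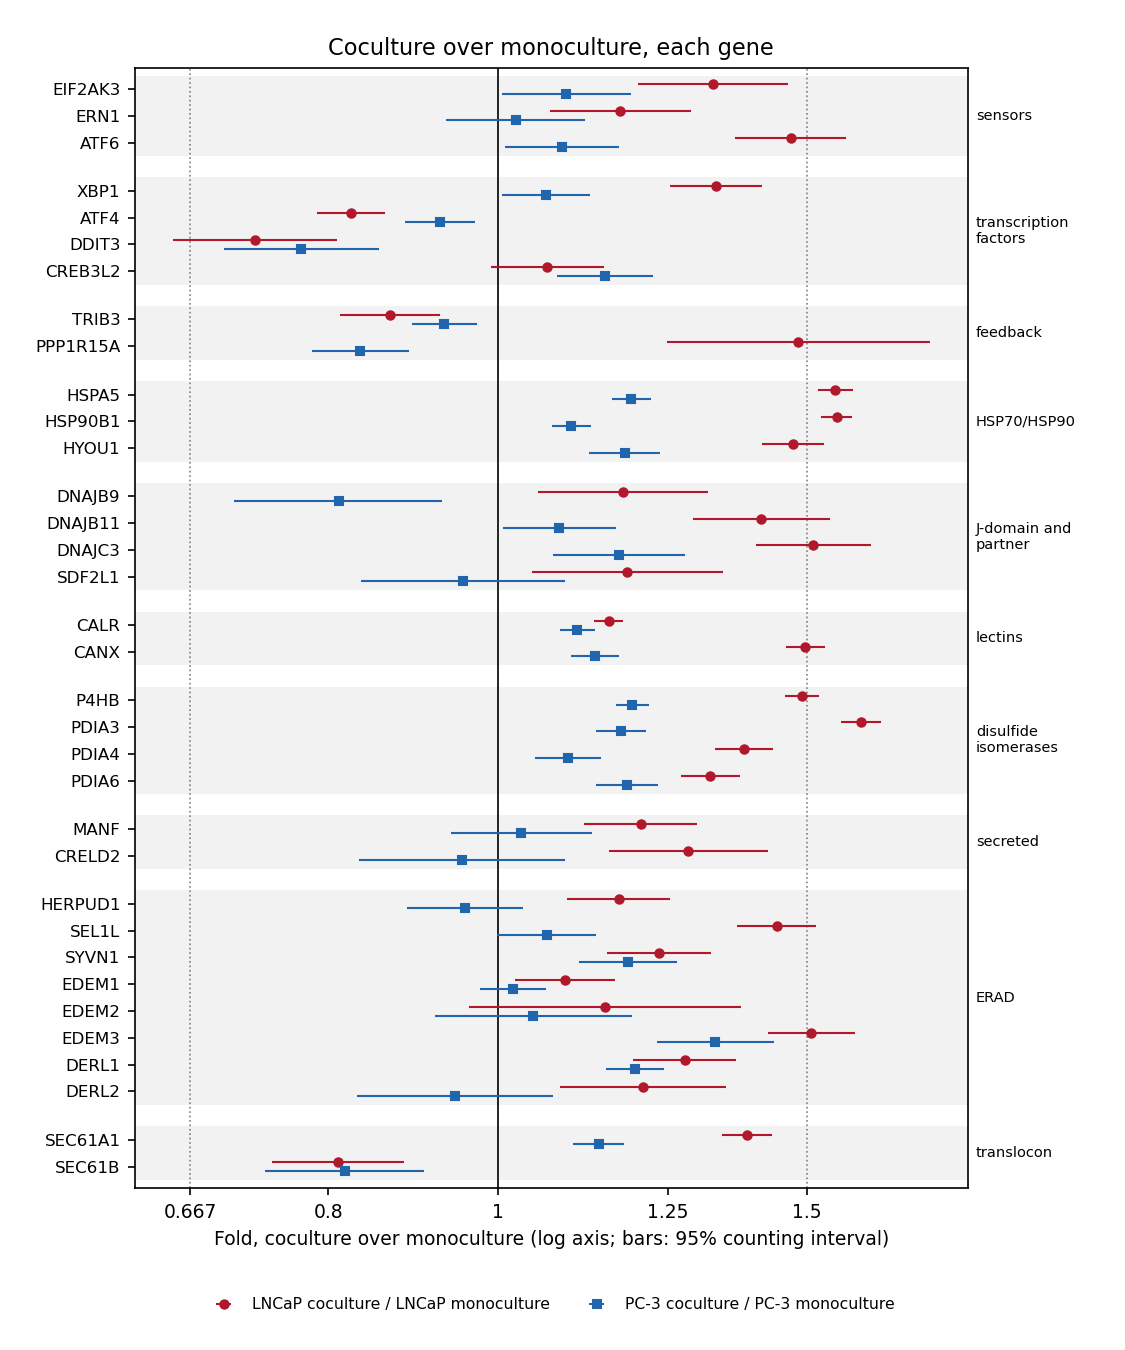
Fold of coculture over monoculture for each gene on a log axis, grouped by role, with bars for the 95% counting interval; red circles are LNCaP and blue squares PC-3, and dotted lines mark 1.5-fold. Nearly all red circles for chaperones, disulfide isomerases and ERAD genes lie right of 1 and of the blue square of the same gene, and ATF4, DDIT3, TRIB3 and SEC61B lie left of 1 in both lines.

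All 3 large chaperones of the ER lumen were higher in LNCaP coculture. HSPA5, which encodes the HSP70 chaperone BiP that binds unfolded chains and holds the sensors inactive, was at 1169 CPM in LNCaP coculture and 750.5 CPM in LNCaP monoculture, 1.56-fold (1.52 to 1.59) higher, and at 804 CPM in PC-3 coculture and 675 CPM in PC-3 monoculture, 1.19-fold (1.16 to 1.22) higher. HSP90B1, which encodes the HSP90 chaperone GRP94, was at 1568 CPM in LNCaP coculture and 1005 CPM in LNCaP monoculture, 1.56-fold (1.53 to 1.59) higher, and at 757 CPM in PC-3 coculture and 688 CPM in PC-3 monoculture, 1.10-fold (1.07 to 1.13) higher. HYOU1, an HSP70-like nucleotide exchange factor for BiP, was at 369 CPM in LNCaP coculture and 251 CPM in LNCaP monoculture, 1.47-fold (1.41 to 1.53) higher, and at 250.3 CPM in PC-3 coculture and 212 CPM in PC-3 monoculture, 1.18-fold (1.13 to 1.24) higher. For these 3 genes the LNCaP coculture had the highest level of the 4 libraries and the PC-3 monoculture the lowest. Of the 3, HSP90B1 had the largest difference between the lines' log2 folds, at 0.50 (0.46 to 0.55), beside 0.39 (0.34 to 0.44) for HSPA5 and 0.32 (0.23 to 0.41) for HYOU1.

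The J-domain proteins, which switch on the ATPase of BiP, were less uniform. DNAJC3, which encodes p58IPK, was at 109.7 CPM in LNCaP coculture and 72.5 CPM in LNCaP monoculture, 1.51-fold (1.40 to 1.63) higher, and at 71.3 CPM in PC-3 coculture and 60.9 CPM in PC-3 monoculture, 1.17-fold (1.07 to 1.28) higher. DNAJB11 (ERdj3), which binds unfolded clients with BiP, was at 74.1 CPM in LNCaP coculture and 52.4 CPM in LNCaP monoculture, 1.41-fold (1.29 to 1.55) higher, while both PC-3 libraries lay above either LNCaP library at 94.9 CPM in coculture and 87.6 CPM in monoculture; 23.2% of its exon bases are shared with other annotated genes. DNAJB9 (ERdj4), which keeps IRE1 inactive together with BiP, went in opposite directions. It was at 44.1 CPM in LNCaP coculture and 37.4 CPM in LNCaP monoculture, 1.18-fold (1.05 to 1.32) higher, but at 24.4 CPM in PC-3 coculture and 30.1 CPM in PC-3 monoculture, a fold of 0.811 (0.707 to 0.929). SDF2L1, a partner of the J-domain proteins with no J domain of its own, was at 35.3 CPM in LNCaP coculture, 29.8 CPM in LNCaP monoculture, 27.5 CPM in PC-3 coculture and 28.8 CPM in PC-3 monoculture. It was 1.18-fold (1.05 to 1.34) higher in LNCaP coculture, and its interval in PC-3, 0.835 to 1.09, spans 1.

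The lectins, which retain glycoproteins until they are folded, were both higher in either coculture but to unlike degrees. CANX, the membrane lectin calnexin, was at 919 CPM in LNCaP coculture and 614 CPM in LNCaP monoculture, 1.50-fold (1.46 to 1.54) higher and just short of the 1.5-fold line, and at 521 CPM in PC-3 coculture and 459 CPM in PC-3 monoculture, 1.14-fold (1.10 to 1.17) higher. CALR, its soluble counterpart calreticulin, was at 1408 CPM in LNCaP coculture and 1218 CPM in LNCaP monoculture, 1.16-fold (1.13 to 1.18) higher, and at 1031 CPM in PC-3 coculture and 929 CPM in PC-3 monoculture, 1.11-fold (1.09 to 1.13) higher. CALR thus had the lowest LNCaP fold among the 13 chaperones and folding enzymes, and its log2 folds in the lines differed by 0.06 (0.02 to 0.10).

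The disulfide isomerases, which form and exchange disulfide bonds in folding chains, included the gene with the largest LNCaP fold. PDIA3 (ERp57), which works with calnexin and calreticulin, was at 945 CPM in LNCaP coculture and 587 CPM in LNCaP monoculture, 1.61-fold (1.57 to 1.65) higher, and at 502 CPM in PC-3 coculture and 427 CPM in PC-3 monoculture, 1.17-fold (1.14 to 1.21) higher. Its reads are less certain, because 18.9% of its exon bases are shared with other genes and the table also lists a pseudogene of it, PDIA3P1. P4HB, which is protein disulfide isomerase itself and also the beta subunit of the prolyl hydroxylase that modifies procollagen, was at 1299 CPM in LNCaP coculture and 872 CPM in LNCaP monoculture, 1.49-fold (1.46 to 1.52) higher, and at 1149.6 CPM in PC-3 coculture and 964 CPM in PC-3 monoculture, 1.19-fold (1.17 to 1.22) higher. P4HB is the only isomerase of the 4 that was lower in LNCaP than in PC-3 monoculture. PDIA4, a further isomerase found with BiP, was at 396 CPM in LNCaP coculture and 287 CPM in LNCaP monoculture, 1.38-fold (1.33 to 1.43) higher, and at 273 CPM in PC-3 coculture and 249 CPM in PC-3 monoculture, 1.10-fold (1.05 to 1.14) higher. PDIA6, likewise found with BiP, was at 392 CPM in LNCaP coculture and 297 CPM in LNCaP monoculture, 1.32-fold (1.27 to 1.37) higher, and at 329 CPM in PC-3 coculture and 278 CPM in PC-3 monoculture, 1.18-fold (1.14 to 1.23) higher. All 4 isomerases thus had their highest level in LNCaP coculture. PDIA6 shares 25.2% of its exon bases with ATP6V1C2 on the opposite strand.

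The secreted stress factors had higher levels in LNCaP than in PC-3 tissues and differed with fibroblasts in LNCaP. MANF, a trophic factor that binds BiP and leaves the cell under ER stress, was at 100.3 CPM in LNCaP coculture and 83.2 CPM in LNCaP monoculture, 1.21-fold (1.12 to 1.30) higher, and at 59.5 CPM in PC-3 coculture and 57.7 CPM in PC-3 monoculture, where the interval of 0.940 to 1.13 spans 1. CRELD2, a secreted protein with EGF-like domains, was at 53.3 CPM in LNCaP coculture and 41.5 CPM in LNCaP monoculture, 1.28-fold (1.16 to 1.42) higher, and at 26.9 CPM in PC-3 coculture and 28.3 CPM in PC-3 monoculture, where the interval of 0.833 to 1.09 spans 1.

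ER-associated degradation (ERAD) carries misfolded proteins back to the cytosol for the proteasome. Of its 8 genes, 7 were higher in LNCaP coculture by their intervals, and EDEM2 spanned 1. Of the 8, 3 were higher in PC-3 coculture, namely EDEM3, DERL1 and SYVN1, and the other 5 spanned 1. EDEM3, which trims mannose from misfolded glycoproteins, had the largest PC-3 fold of the 34 genes. It was at 189 CPM in LNCaP coculture and 125 CPM in LNCaP monoculture, 1.51-fold (1.42 to 1.60) higher, and at 97.1 CPM in PC-3 coculture and 73.0 CPM in PC-3 monoculture, 1.33-fold (1.23 to 1.44) higher. SEL1L, the adaptor of the ubiquitin ligase, was at 222 CPM in LNCaP coculture and 154 CPM in LNCaP monoculture, 1.44-fold (1.37 to 1.52) higher, while its ligase partner SYVN1 (HRD1) was 1.24-fold (1.15 to 1.32) higher there. In PC-3 tissues SYVN1 was 1.19-fold (1.11 to 1.26) higher in the coculture, and the interval of SEL1L, 0.998 to 1.14, spans 1. HERPUD1, a scaffold of the ligase complex, was at 118 CPM in LNCaP coculture, 101 CPM in LNCaP monoculture, 82.4 CPM in PC-3 coculture and 86.1 CPM in PC-3 monoculture. The derlins form part of the exit channel: DERL1 was 1.28-fold (1.19 to 1.37) higher in LNCaP coculture and 1.20-fold (1.15 to 1.24) higher in PC-3 coculture, and DERL2 1.21-fold (1.08 to 1.35) higher in LNCaP coculture with an interval of 0.831 to 1.07 in PC-3. EDEM1 and EDEM2, mannosidase-like relatives of EDEM3, had the smallest folds of the group in LNCaP, 1.09 (1.02 to 1.17) and 1.15 (0.963 to 1.38).

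The 2 translocon subunits went apart. SEC61A1, the channel itself, was at 564 CPM in LNCaP coculture and 407 CPM in LNCaP monoculture, 1.39-fold (1.34 to 1.43) higher, and at 481 CPM in PC-3 coculture and 422 CPM in PC-3 monoculture, 1.14-fold (1.10 to 1.18) higher. SEC61B, the small tail-anchored subunit, was at 60.5 CPM in LNCaP coculture and 74.6 CPM in LNCaP monoculture, a fold of 0.811 (0.743 to 0.884), and at 41.2 CPM in PC-3 coculture and 50.4 CPM in PC-3 monoculture, a fold of 0.817 (0.736 to 0.908). Its transcript of 545 bases is the shortest of the 34, and the sign of its log2 fold turned to 0.15 in LNCaP and 0.054 in PC-3 once folds were corrected for length and GC content.

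Many chaperone genes are known to carry the ER stress element (ERSE), bound by NF-Y with ATF6 or XBP1, or its shorter variant ERSE-II. Promoter windows from RefSeq (GRCh38.p14), 250 bases before to 50 after the start, were found for 32 of the 34 genes, all but DERL1 and PDIA3. They were searched on both strands for ERSE, which is CCAAT and CCACG with 9 bases of any kind between them, and for ERSE-II, which is ATTGG and CCACG with 1 base between them. ERSE was in 7 of the 32 genes, where 0.0916% of 27305 genes with a window hold it, and ERSE-II in 3 of 32, where 0.0696% do. The 10 genes and their 12 elements are shown because they recur among these 32 genes, with the element in capitals and each sequence read 5′ to 3′ on the strand of the gene, so that an element on the other strand begins with CGTGG.
HSPA5 ERSE, chr9:125241385-125241414, minus strand: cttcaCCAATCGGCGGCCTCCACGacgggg
HSP90B1 ERSE, chr12:103930211-103930240, plus strand: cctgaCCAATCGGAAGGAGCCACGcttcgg
HSP90B1 ERSE, chr12:103930316-103930345, plus strand: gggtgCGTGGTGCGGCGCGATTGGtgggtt
CALR ERSE, chr19:12938379-12938408, plus strand: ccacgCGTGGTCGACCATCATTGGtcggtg
CANX ERSE, chr5:179698773-179698802, plus strand: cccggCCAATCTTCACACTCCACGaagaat
CRELD2 ERSE, chr22:49918549-49918578, plus strand: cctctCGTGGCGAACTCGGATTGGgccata
PDIA6 ERSE, chr2:10812847-10812876, minus strand: ccggaCCAATGAGCCGCAGCCACGgcttgg
XBP1 ERSE, chr22:28800597-28800626, minus strand: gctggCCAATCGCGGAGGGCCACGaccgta
HERPUD1 ERSE-II, chr16:56932020-56932041, plus strand: cgccgATTGGGCCACGttggga
HYOU1 ERSE-II, chr11:119057374-119057395, minus strand: cgtgaCGTGGTCCAATcccagg
HYOU1 ERSE-II, chr11:119057268-119057289, minus strand: tgggaCGTGGTCCAATgagtac
SDF2L1 ERSE-II, chr22:21642109-21642130, plus strand: ggaagCGTGGACCAATcaaaac

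**Figure D4:**
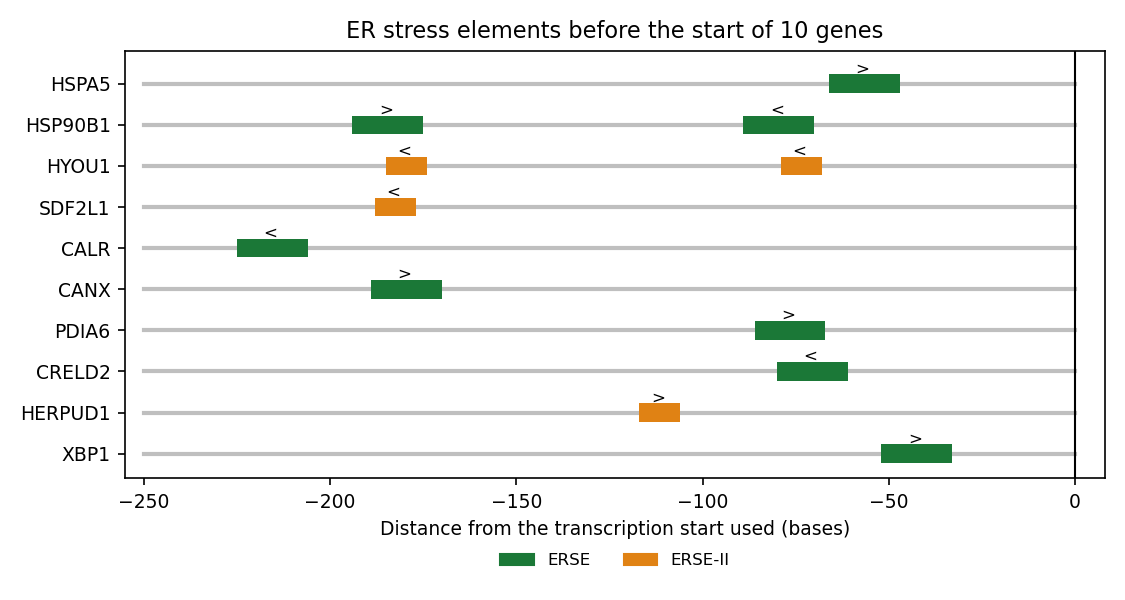
Position of each ERSE (green) and ERSE-II (orange) before the transcription start of 10 genes, in bases from the start (vertical line at 0); the arrowhead gives the element's direction. The XBP1 element begins 52 bases before the start and the CALR element 225, and HSP90B1 and HYOU1 have 2 elements each.

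The HSPA5 element lies 66 to 48 bases before the start. The 250 bases before that start, chr9:125241344-125241593 on the minus strand, are given with the full match in capitals.
HSPA5: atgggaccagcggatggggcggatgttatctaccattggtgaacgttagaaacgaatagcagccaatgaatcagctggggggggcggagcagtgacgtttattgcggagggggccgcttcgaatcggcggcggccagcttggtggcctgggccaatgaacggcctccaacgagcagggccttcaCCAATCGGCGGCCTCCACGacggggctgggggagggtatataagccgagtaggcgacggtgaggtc

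The CANX element lies in the promoter windows of 3 annotated starts of that gene. Other motifs were searched in the same windows. The unfolded protein response element TGACGTGG was in 1 of 32 genes, HYOU1, where it overlaps an ERSE-II, beside 0.927% of all genes. The C/EBP-ATF response element TGATGNAA, a site type for ATF4, was in HERPUD1 and CREB3L2, beside 4.46% of all genes. The 10 genes with ERSE or ERSE-II had a median log2 fold of 0.41 in LNCaP coculture against monoculture with 10 of 10 above 0, and the 22 with a window and neither had 0.29 with 18 of 22 above 0, beside a median of 0.00033 and 50.1% above 0 over all genes. In the PC-3 coculture the medians were 0.14 with 7 of 10 above 0, and 0.08 with 15 of 22 above 0, beside 0.0043 and 50.8% over all genes. The folds of these sets overlap widely: EDEM3 and DNAJC3 hold neither motif and reached 1.5-fold in LNCaP, and HERPUD1, SDF2L1 and CALR hold one with LNCaP folds of 1.17, 1.18 and 1.16.

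Between the lines, the comparison asks how an androgen-dependent and a castration-resistant line differ, with the medium of the LNCaP tissues unknown. In monoculture 19 of 34 genes were higher in LNCaP by log2 fold, where 51.3% of all genes were, with a median of 0.12 beside 0.039 over all genes. EDEM3 was the 1 gene at least 1.5-fold higher, where 32.3% of all genes were, and 6 were at least 1.5-fold lower (TRIB3, PPP1R15A, DNAJB11, EDEM1, EDEM2 and DERL1), where 31.4% were. In coculture 23 of 34 were higher in LNCaP, where 50.2% of all genes were, with a median of 0.33 beside 0.0061 over all genes. At least 1.5-fold higher there were HSP90B1, DNAJB9, DNAJC3, CANX, PDIA3, MANF, CRELD2, SEL1L, EDEM3 and DERL2, 10 of 34 beside 31.0% of all genes. At least 1.5-fold lower were TRIB3, PPP1R15A, EDEM1, EDEM2 and DERL1, 5 of 34 beside 32.1%. The comparisons in coculture and in monoculture use different libraries, but each shares its libraries with the coculture contrasts above.

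The largest line differences were in the PERK feedback arm and in ERAD. PPP1R15A was 9.25-fold (8.07 to 10.7) lower in LNCaP than in PC-3 monoculture and 5.21-fold (4.63 to 5.87) lower in coculture. TRIB3 was 2.23-fold (2.12 to 2.36) lower in LNCaP than in PC-3 monoculture and 2.40-fold (2.27 to 2.54) lower in coculture. ATF4, a factor known to act on both genes, lay closer between the lines: it was 1.12-fold (1.07 to 1.17) higher in LNCaP than in PC-3 monoculture, and in coculture its fold was 0.999 (0.953 to 1.05). In ERAD the same gene families split. DERL1 was at 124 CPM in LNCaP coculture and 369 CPM in PC-3 coculture, 2.97-fold (2.82 to 3.13) lower, and at 97.3 CPM in LNCaP monoculture and 308 CPM in PC-3 monoculture, 3.17-fold (2.99 to 3.36) lower, whereas DERL2 was 1.58-fold (1.40 to 1.77) higher in LNCaP coculture and 1.23-fold (1.09 to 1.39) higher in LNCaP monoculture. The split recurs among the EDEM genes. EDEM1 was at 122 CPM in LNCaP coculture and 265 CPM in PC-3 coculture, 2.18-fold (2.06 to 2.30) lower, and at 111 CPM in LNCaP monoculture and 259.7 CPM in PC-3 monoculture, 2.33-fold (2.20 to 2.46) lower. EDEM2 was 1.76-fold (1.51 to 2.05) lower in LNCaP coculture and 1.94-fold (1.65 to 2.27) lower in LNCaP monoculture. EDEM3 ran the other way, 1.95-fold (1.83 to 2.07) higher in LNCaP coculture and 1.71-fold (1.59 to 1.85) higher in LNCaP monoculture. Among the 13 chaperones and folding enzymes HSP90B1 differed most in coculture, 2.07-fold (2.03 to 2.12) higher in LNCaP than in PC-3 coculture and 1.46-fold (1.43 to 1.50) higher in monoculture. In monoculture DNAJB11 was farther apart than HSP90B1, 1.67-fold (1.53 to 1.82) lower in LNCaP. Of the secreted factors, CRELD2 was 1.98-fold (1.76 to 2.23) higher in coculture and 1.47-fold (1.30 to 1.66) higher in monoculture.

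**Figure D5:**
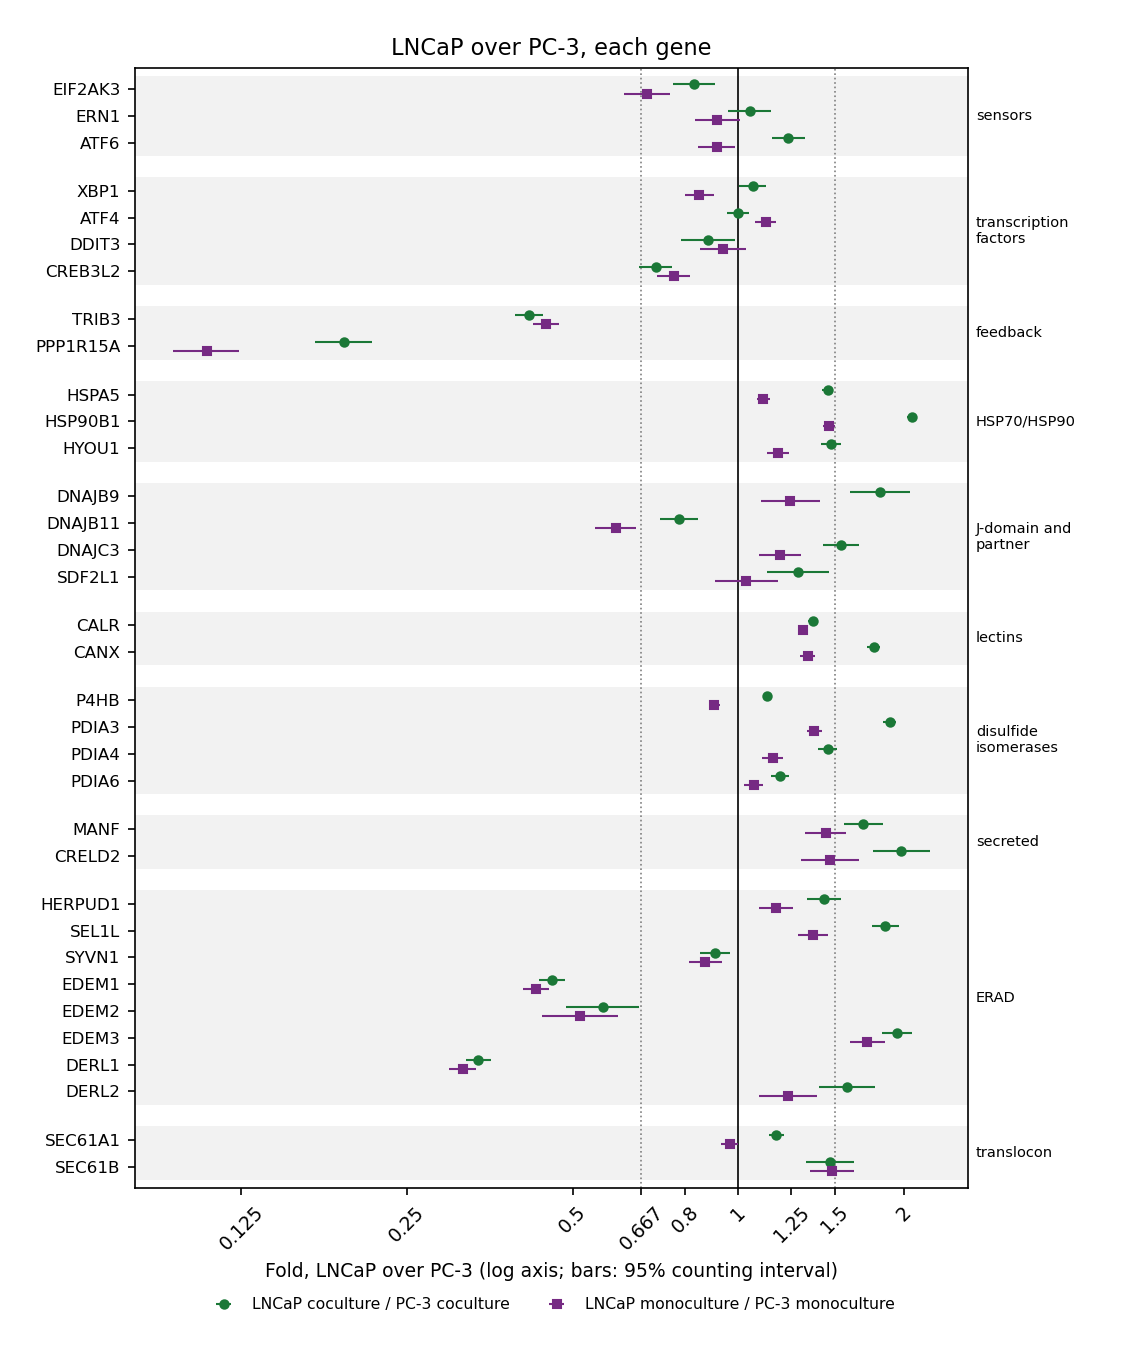
Fold of LNCaP over PC-3 for each gene on a log axis, grouped by role, with bars for the 95% counting interval; green circles are cocultures and purple squares monocultures, and dotted lines mark 1.5-fold. PPP1R15A, DERL1, EDEM1 and TRIB3 lie far left of 1 in both, and HSP90B1 in coculture is the only point past 2-fold on the right.

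Other genes of the ER were described from 6 lists, of which 116 genes had at least 1 CPM in an LNCaP library and 114 in a PC-3 library. In the LNCaP coculture 81 of 116 were higher by log2 fold, beside 50.1% of all genes, with a median of 0.20, and 12 were at least 1.5-fold higher and 3 at least 1.5-fold lower, beside 7.88% and 8.95% of all genes. In the PC-3 coculture 71 of 114 were higher, beside 50.8% of all genes, with a median of 0.11. None was at least 1.5-fold higher there and 1 was at least 1.5-fold lower, beside 4.65% and 3.86% of all genes. The tallies by list that follow stand against those same shares above 0, 50.1% in LNCaP and 50.8% in PC-3. The 27 other ER chaperones and folding enzymes did not follow the larger LNCaP folds of the 13 above: 19 of 27 were higher in LNCaP coculture with a median of 0.15, and 20 of 25 in PC-3 coculture with a median of 0.16. The difference of their log2 folds, LNCaP minus PC-3, was above 0 for 13 of 27, with a median of -0.02, beside 52.0% of all genes. Among genes at 20 CPM or more in both libraries, 18 of 22 were higher in LNCaP with a median of 0.25, beside 53.5% of all genes. In PC-3 17 of 21 were, with a median of 0.15, beside 4282 of 8352 genes. At 20 CPM or more in every library the difference was above 0 for 9 of 19, with a median of -0.06, beside 3837 of 6942 genes. In the LNCaP coculture 4 of the 27 were at least 1.5-fold higher and 2 at least 1.5-fold lower, all 6 named here after their values were seen. The disulfide isomerase family genes PDIA5 and ERP44 and the J-domain genes DNAJC1 and DNAJC10 were 1.54-fold (1.36 to 1.74), 1.68-fold (1.51 to 1.86), 1.62-fold (1.42 to 1.84) and 1.77-fold (1.63 to 1.91) higher. Lower were FKBP2, a prolyl isomerase of the ER, with a fold of 0.510 (0.424 to 0.612), and PDIA2, with 0.449 (0.303 to 0.655). Neither of these lower genes was at 20 CPM or more in both LNCaP libraries. At that level 0 of 22 genes of the list were at least 1.5-fold lower, beside 232 of 8123 genes. The targets of PERK and ATF4 were mostly lower: 2 of 15 were higher in LNCaP coculture with a median of -0.18, and 4 of 15 in PC-3 coculture with a median of -0.07. Of these targets, those past 1.5-fold, named after their values were seen, were CHAC1, a glutathione-degrading enzyme, with a fold of 0.630 (0.476 to 0.830) in LNCaP, and VLDLR, a lipoprotein receptor, with 0.650 (0.505 to 0.835) in PC-3. CHAC1 was at 5.54 CPM in LNCaP coculture and 8.80 CPM in LNCaP monoculture. No target at 20 CPM or more in both libraries was past 1.5-fold. At that level 155 of 8123 genes were that much higher and 232 that much lower in LNCaP, and 45 and 31 of 8352 in PC-3. Further ERAD genes were higher for 17 of 22 in LNCaP and 12 of 21 in PC-3, with medians of 0.29 and 0.08, and translocon and signal peptide genes for 16 of 23 and 10 of 23, with medians of 0.15 and -0.03. The list of other stress sensors and the CREB3 family had 14 of 15 genes higher in LNCaP and 10 of 15 in PC-3, with medians of 0.29 and 0.16.

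Procollagen chaperones and modifying enzymes, which act on collagen chains in the ER, were higher for 13 of 14 genes in LNCaP coculture (median 0.27) and 15 of 15 in PC-3 coculture (median 0.29). SERPINH1, the collagen chaperone HSP47, was at 18.1 CPM in LNCaP coculture and 3.29 CPM in LNCaP monoculture, 5.48-fold (4.07 to 7.52) higher, and at 91.8 CPM in PC-3 coculture and 70.9 CPM in PC-3 monoculture, 1.30-fold (1.20 to 1.40) higher. The prolyl hydroxylase genes P3H3 and P3H2 were 5.22-fold (3.03 to 9.55) and 3.01-fold (2.13 to 4.32) higher in LNCaP coculture, each below 10 CPM in all 4 libraries. CREB3L1, a membrane-bound transcription factor of collagen-secreting cells, had 107 counts in LNCaP coculture and 0 in LNCaP monoculture, at least 36.3-fold higher against 3 counts, and 241 CPM in PC-3 coculture and 254 CPM in PC-3 monoculture. The summed fibroblast markers were higher in the same cocultures, though S100A4 was lower in PC-3 coculture (68.0 CPM) than in PC-3 monoculture (81.2 CPM). The part of fibroblast RNA in these values was not tested. PC-3 monoculture thus held both CREB3L1 and SERPINH1 with no fibroblasts added, and LNCaP monoculture held 0 counts of CREB3L1 and 3.29 CPM of SERPINH1.

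Of the same lists, the genes farthest apart between the lines in coculture and in monoculture are named here, among those at 5 CPM or more in the higher library. DERL3, which fell short of that level, had the highest LNCaP over PC-3 log2 fold of the lists in coculture, 4.30. In monoculture its log2 fold was 3.45. SIL1, like HYOU1 a nucleotide exchange factor of BiP, was at 80.6 CPM in LNCaP coculture, 62.9 CPM in LNCaP monoculture, 4.91 CPM in PC-3 coculture and 3.57 CPM in PC-3 monoculture. On the LNCaP side were also CREB3L4, a relative of CREB3L2 (5.77-fold (5.11 to 6.53) higher in coculture and 5.97-fold (5.21 to 6.88) in monoculture), VLDLR (12.6-fold (10.4 to 15.6) and 7.85-fold (6.67 to 9.28)) and the ERAD oxidoreductase gene FOXRED2 (5.68-fold (5.13 to 6.31) and 5.49-fold (4.90 to 6.16)). PDIA2, an isomerase of low level here, had 41 counts in LNCaP coculture and 93 counts in LNCaP monoculture, a fold of 0.449 (0.303 to 0.655), and against 0 counts in PC-3 monoculture the LNCaP monoculture was at least 31.3-fold higher, set against 3 counts. On the PC-3 side, the translocon gene TRAM1 was 3.52-fold (3.38 to 3.68) lower in LNCaP coculture than in PC-3 coculture and 5.48-fold (5.23 to 5.74) lower in monoculture, and SERPINH1 was 5.08-fold (4.47 to 5.80) lower in coculture and 21.5-fold (16.3 to 29.0) lower in monoculture. STC2, a secreted glycoprotein hormone, was 3.70-fold (3.55 to 3.86) lower in LNCaP coculture than in PC-3 coculture, EIF2AK2, the RNA-activated kinase PKR, 3.67-fold (3.46 to 3.89) lower, and CREB3L1 34.9-fold (28.8 to 42.7) lower. In monoculture P3H3 was 6.43-fold (3.78 to 11.7) lower in LNCaP, and CREB3L1, at 0 counts in LNCaP, at least 1338-fold lower against 3 counts.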

How the data were processed

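Estimated counts for 17791 gene symbols in 4 libraries, 1 per group, are what the authors deposited. Per the submitters' processing notes, Partek, STAR and FastQC were used with hg38; roles, versions, annotation and filters are not given in the sources used here. TruSeq RNA v2 libraries were made from total RNA, per the labels' protocols. Between 33.7% and 34.1% of the deposited estimated counts in a library were not whole, and all were rounded. Totals of 15520243 to 15865690 counts set the precision: a gene at 0 may have up to 3 counts, which is 0.188 to 0.193 CPM.

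Counts were scaled with TMM factors of 0.996 to 1.006 (edgeR 4.0.16, R 4.3.3) to CPM. Log2 folds used a prior count of 2 and decided which genes were called 1.5-fold or 2-fold apart, among genes that reached 1 CPM in a library compared. Plain folds divide scaled counts and carry exact conditional binomial 95% intervals, shares have Clopper-Pearson intervals, and differences of log2 folds have delta-method intervals. Intervals cover counting error only, since each group has 1 library. Reads also lack molecular identifiers, so copies of the same molecule cannot be told from separate molecules and the intervals may be too narrow. The steps were checked on simulated counts. Transcript lengths, GC content and overlaps came from GENCODE 29, which held 17082 of the symbols (96.0%), and promoters from RefSeq on GRCh38.p14 (Python 3.11.15, pandas 2.3.3, scipy 1.17.1).

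All 34 genes are named; of other ER genes the rule took up to 4 highest and 4 lowest per comparison among those at least 2-fold apart and at 5 CPM or more. Alternatives were total-count and DESeq2 1.42.0 scaling, prior counts of 0.5 and 8, other filters, unrounded counts and a length and GC correction. The genes and lists were chosen with earlier results of these data known.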

Additional observations from a re-analysis of the deposited data

Results flagged for a closer look

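PPP1R15A and DNAJB9 moved in opposite directions in the lines, each beyond counting error. The log2 fold of PPP1R15A in coculture over monoculture was 0.56 in LNCaP and -0.26 in PC-3, a difference of 0.82. The log2 fold of DNAJB9 was 0.24 in LNCaP and -0.30 in PC-3, a difference of 0.54. With 1 library per group these differences were not tested, and for PPP1R15A the LNCaP value rests on the 2 lowest levels of that gene, 21.4 CPM in the coculture and 14.4 CPM in the monoculture.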

How the results depend on the processing

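Scaling, prior count, filter, rounding and a correction for transcript length and GC content were varied 1 at a time. Of the results over all 34 genes, 250 kept their value and 4 did not. Dropping the low-count filter or raising it to 5 CPM could not change any of them. All 34 genes were above 5 CPM in every library, the lowest being PPP1R15A at 14.4 CPM in LNCaP monoculture. Results under those filters are therefore among the 250, and for single genes among the values that stayed, and do not bear on how firm the results are. A count was kept if it stayed within 1.5-fold, and a share if it stayed within its interval. A median log2 fold has no interval of its own here. It was kept if its sign held and it stayed between the medians of the single genes' lower and upper interval limits. With DESeq2 size factors, 10 genes instead of 5 were at least 1.5-fold higher in the LNCaP coculture than in its monoculture. The median log2 fold of LNCaP over PC-3 in monoculture was 0.056 instead of 0.12. That scaling moved the median of all genes as well, from 0.00033 to 0.040 in the first comparison and from 0.039 to -0.033 in the second. In the second, the median of the 34 genes stood 0.084 above that of all genes with TMM factors and 0.089 above it with DESeq2 size factors. With the length and GC correction, 2 genes instead of 1 were at least 1.5-fold higher in the LNCaP than in the PC-3 monoculture. Among genes at 20 CPM or more in every library, an alternative chosen after seeing the data, 0 genes instead of 1 had a difference in coculture log2 fold of at least 1.5-fold, since PPP1R15A is below that level in the LNCaP monoculture. Of the values for single genes, 1292 stayed, 63 moved and 5 reversed. A reversal was a change of sign in a value whose counting interval lay apart from no difference. Any change of sign in other values falls among the 1292 and 63. All 5 reversals came with the length and GC correction: SEC61B to 0.15 in LNCaP coculture over monoculture (-0.30 without it) and to 0.054 in PC-3 (-0.29), SEC61A1 to 0.00392 in LNCaP over PC-3 monoculture (-0.05), and XBP1 to -0.0279 and SYVN1 to 0.13 in LNCaP over PC-3 coculture (0.09 and -0.14). The cause was not tested. The median log2 fold in the LNCaP coculture lay between 0.38 and 0.42 under all of these settings. No paired analysis was possible because each group has 1 library, and no library could be left out for the same reason. Depth limits the least abundant genes: for EDEM2, at 17.3 CPM in the LNCaP coculture and 15.1 CPM in the LNCaP monoculture, the counting interval of the fold ran from 0.963 to 1.38.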
